A study of Mus musculus with 10 samples.

Results

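The genes described here are 10 genes of the actin cytoskeleton, *Actb*, *Actg1*, *Acta2*, *Actn1*, *Actn4*, *Arpc2*, *Arpc3*, *Capzb*, *Cfl1* and *Ezr*, followed over the plates, lineages and cell groups of a single cell RNA experiment in mouse hind limbs. All 10 of 10 are among the 29183 genes with complete rows for both lineages. The members were chosen by measured values of these data: the list was drawn around *Actb*, whose level differs between *Grem1*-lineage plates 1, 2 and 4 and plates 5 to 9, and the question was which of the other 9 share that difference.

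Red cells from *Grem1-TdT* and from *Lepr-TdT* mice (C57BL/6) were sorted singly into 96-well plates, 8 of them for the *Grem1* lineage (plates 1, 2, 4, 5, 6, 7, 8 and 9) and 2 for the *Lepr* lineage. Both lines carry a *Rosa-TdTomato* reporter, switched on by a tamoxifen-inducible *Grem1-creERT* or by a constitutive *Lepr-cre*, so a red cell is one that expressed the driver or descends from such a cell. *Grem1-TdT* mice were 5 to 6 weeks old when they received tamoxifen chow for 2 weeks, their cells came from dissected articular cartilage (AC) and growth plate (GP), and *Lepr-TdT* mice were age matched, with cells taken from crushed whole bones after exclusion of blood and endothelial cells by CD45, Ter119 and CD31. The labels do not give the tissue, the number of mice, their sex or the processing day of a plate, so the plate was the replicate, and p-values measure the spread between plates only.

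Actin is the protein of the thin filaments that shape a cell and carry its traction on the matrix. Filaments grow from monomers, branch from the Arp2/3 complex, are capped and severed by turnover factors, are bundled by cross-linkers such as the actinins, and are tied to the membrane by linkers such as ezrin. In chondrocytes the cortical actin network accompanies the round cell shape and the cartilage programme, whereas stress fibres are typical of spread cells. Beta-actin, the product of *Actb*, is one of the most abundant transcripts of many cells and is often used as a reference gene.

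Wells with fewer than 350 detected genes were removed, counted over the genes listed for their lineage (29183 for *Grem1*, 50508 for *Lepr*). The same minimum is therefore laxer for *Lepr*-lineage wells. In all, 684 of 768 *Grem1*-lineage and 160 of 162 *Lepr*-lineage wells were kept. *Grem1*-lineage plates held 133289 to 179071 unique molecular identifiers (UMIs, each counting 1 captured RNA molecule once). The *Lepr*-lineage plates held 64310 and 59981 UMIs over the shared genes. *Grem1*-lineage cells were split in 2 groups: 414 cells in which *Clu*, *Cilp* and *1500015O10Rik* together had more UMIs than *Cnmd*, called articular-marker cells here, and 270 other cells. Levels are given in CPM, UMI counts scaled by the total of the tested genes after TMM normalisation (trimmed mean of M values), so values of whole plates and of cell groups are on 2 scales. The 9 articular cartilage markers, 3 of which made the split, summed to 59650 to 84206 CPM in the articular-marker sums and 4281 to 8884 CPM in the other sums, and the 5 *Cnmd*-rich markers to 4382 to 11158 and 29648 to 44884 CPM. Articular-marker cells were shallower, with a median of 1217 UMIs against 2218.5. The 96 well barcodes were the same on each *Grem1*-lineage plate, as designed well tags are, and 92 of them were those of the *Lepr*-lineage plates.

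*Actb* lies on chromosome 5 (chr5:142903115-142906754, minus strand, GRCm38), and *Actg1*, the gene of the other cytoplasmic actin, on chromosome 11 (chr11:120345690-120348542, minus strand). *Acta2*, which encodes smooth muscle alpha-actin, is at chr19:34241090-34255590 on the minus strand. *Actg1* overlaps exons of *Gm23419* and *Mir6935* on its own strand, and *Actn1*, *Actn4*, *Cfl1* and *Ezr* overlap exons of other genes on the opposite strand (*Gm47766* and *Gm47767*, *Capn12*, *Snx32* and *Sytl3*). Of the 443 windows of 58 bases, the length of the cDNA read, in the last 500 bases of the *Actb* transcript, 25 (5.64%) also occur in *Lrrc58*, and 0 of the windows of the other members occur in another gene.

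Transcription of actin genes is a textbook function of serum response factor (SRF), which binds a short sequence called the CArG box. Only boxes of the exact form CCWWWWWWGG, with W as A or T, were searched for, so boxes with a mismatch would be missed. Promoters ran from 250 bases before to 50 after the start. The stretch below holds the only such box found, in capitals, in the promoters of the 9 members in RefSeq's promoter table for GRCm38.p6. *Actb* has no entry. A CArG box of this exact form on either strand is found in 535 of 32851 promoters of that table (1.63%). The stretch is read on the minus strand at chr11:120348551-120348610, and the box begins 90 bases before the start site.
*Actg1* promoter: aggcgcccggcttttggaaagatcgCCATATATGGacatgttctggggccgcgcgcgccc

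*Actb* was the member whose plates selected the split, so its values are given as a description with no test. On plates 1, 2 and 4 it had 7681, 8402 and 9724 CPM, and on plates 5, 6, 7, 8 and 9 it had 39359, 52251, 41965, 56482 and 43979.8 CPM. The highest of the first 3 plates is far below the lowest of the other 5. The means were 8603 ± 1036 CPM (SD, n = 3) and 46807 ± 7249 CPM (SD, n = 5), a 5.44-fold ratio (2.44 on the log2 scale, and 2.23 on plain totals without TMM). Of the 2739 genes with a mean of at least 50 CPM over the 8 plates, 18, *Actb* included, had a log2 ratio at or above this one. *Lepr*-lineage plates 1 and 2 had 17685 and 9356 CPM, between the sets on the first plate and within plates 1, 2 and 4 on the second.

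**Figure D1:**
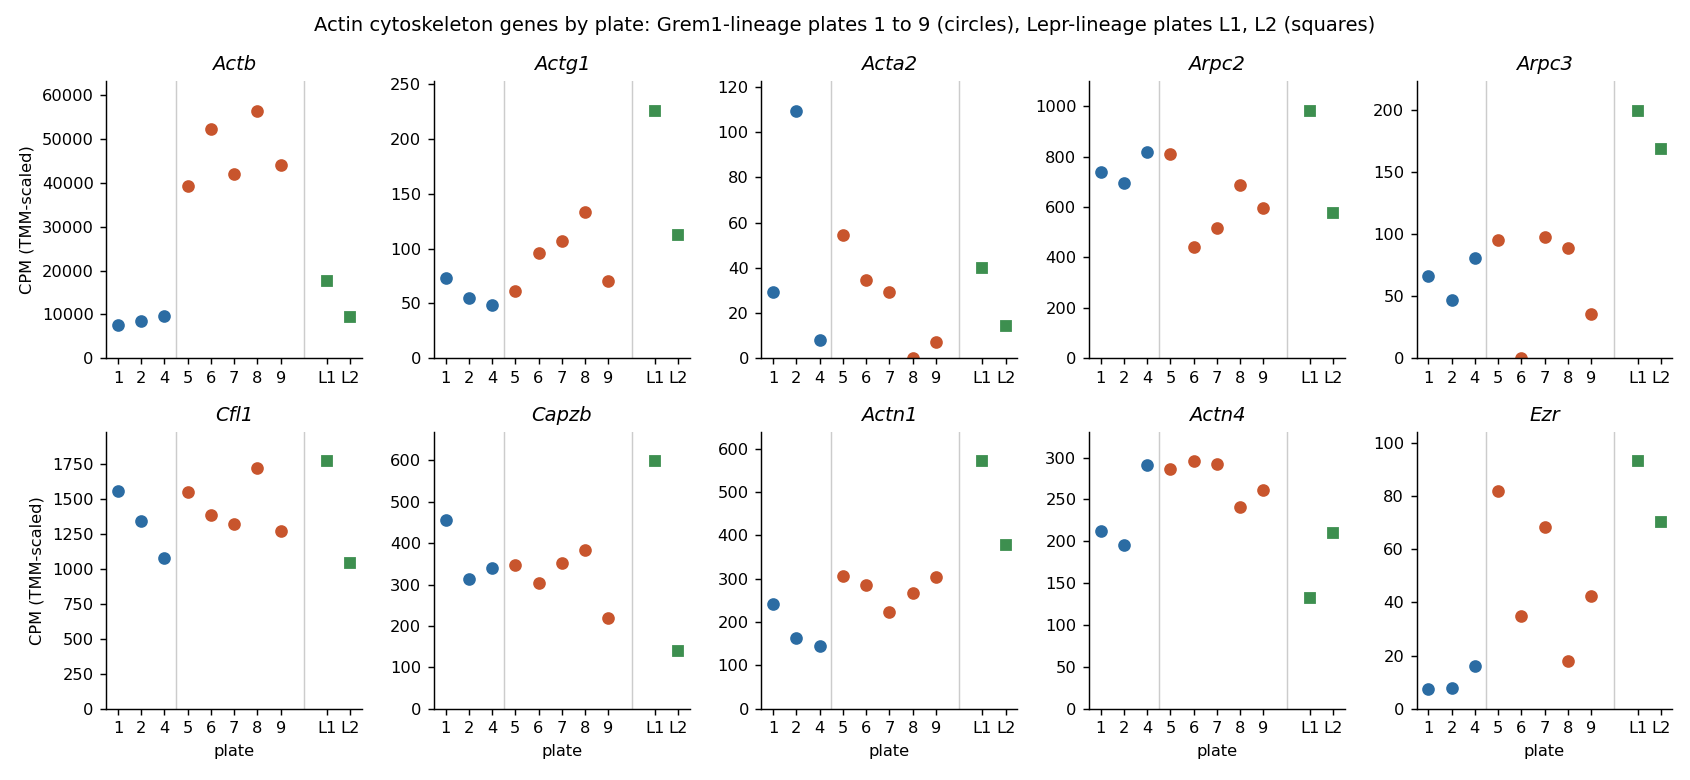
CPM (vertical axes, linear from 0, TMM-scaled) of each of the 10 genes by plate (horizontal axes), with *Grem1*-lineage plates as circles (plates 1, 2 and 4 blue, 5 to 9 orange) and *Lepr*-lineage plates L1 and L2 as green squares; each point is 1 plate. Only *Actb* shows a wide gap between the sets, from 9724 to 39359 CPM, while *Ezr* is separated by less than 2 CPM.

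With a mean of at least 50 CPM required, 8 members could be read against all genes, and 1 of them, *Actb* itself, had every one of plates 5 to 9 above plates 1, 2 and 4, where 189 of the 2739 genes did (6.90%). None of the 8 had them all below, against 114 genes (4.16%). On plain totals 110 of 2479 genes lay above and 280 below, so the balance of directions depends on the scaling, and there *Arpc2* lay below with a log2 ratio of -0.52.

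*Actg1* encodes an actin that differs from beta-actin in few residues. It had 73.4, 54.8 and 48.5 CPM on plates 1, 2 and 4 and 61.4, 95.6, 107.3, 133.6 and 70.8 CPM on plates 5 to 9, from 79 UMIs in all. The sets overlap, because plates 5 and 9 lie below plate 1. Its log2 ratio was 0.67, a difference that plates 1 and 5 to 9 do not separate, and without plate 1 the sets no longer overlap. *Acta2* had 29.3, 109.5 and 8.09 CPM against 54.6, 34.8, 29.3, 0 and 7.08 CPM, from 35 UMIs, and a count of 0 on plate 8 allows up to 26.7 CPM. Thus of the 3 actin isoforms among the members, *Actb* alone separated the sets, and depth limits this contrast for *Actg1* and *Acta2*.

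*Arpc2* and *Arpc3* encode subunits of the Arp2/3 complex, which starts branches on filaments. *Arpc2* had 741.0, 696.3 and 817.1 CPM on plates 1, 2 and 4, and 811.5, 443.1, 516.8, 685.8 and 594.3 CPM on plates 5 to 9, a log2 ratio of -0.30. Plate 5 is close to plate 4, and the other 4 plates of its set are below all of plates 1, 2 and 4. *Arpc3* had 66.0, 46.9 and 80.9 CPM against 95.5, 0, 97.5, 89.1 and 35.4 CPM, and the 0 of plate 6 allows up to 26.1 CPM. The *Arpc3* sets overlap at both ends.

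*Cfl1*, which encodes the filament-severing cofilin of non-muscle cells, had 1555, 1338 and 1076 CPM against 1548, 1381, 1316, 1719 and 1266 CPM. Its log2 ratio of 0.13 was -0.10 on plain totals, and the sets overlap widely. *Capzb*, which encodes the beta subunit of capping protein, had 454.9, 312.9 and 339.8 CPM against 347.8, 304.1, 351.0, 383.0 and 219.3 CPM. Its ratio was -0.20 on the log2 scale with overlapping sets.

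*Actn1* and *Actn4* encode the non-muscle alpha-actinins, which cross-link filaments. *Actn1* had 242.1, 164.3 and 145.6 CPM on plates 1, 2 and 4 and 306.9, 286.7, 224.3, 267.2 and 304.2 CPM on plates 5 to 9, a log2 ratio of 0.59. Only plate 7 lies below plate 1, so leaving out either of these 2 plates separates the sets. *Actn4* had 212.8, 195.6 and 291.2 CPM against 286.4, 295.4, 292.5, 240.5 and 261.8 CPM, a ratio of 0.24 (0.02 on plain totals), with plate 4 as high as the second set. *Ezr*, the membrane linker, had 7.34, 7.82 and 16.2 CPM against 81.8, 34.8, 68.3, 17.8 and 42.5 CPM. These stand for 1, 1 and 2 UMIs against 12, 4, 7, 2 and 6 UMIs, so plates 4 and 8 had equal counts and the sets overlap on plain totals. With a log2 ratio of 2.23 *Ezr* comes closest to *Actb* in size, at a depth too low to place single plates.

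The *Actb* difference was present in both cell groups. In articular-marker cells *Actb* had 7976, 9749 and 11834 CPM on plates 1, 2 and 4, and 36592, 42271, 35407, 46725 and 39853 CPM on plates 5 to 9, a 4.08-fold ratio. In the other cells it had 8364, 8495 and 9167 CPM, and 43248, 61553, 54873, 66371 and 50402 CPM, a 6.37-fold ratio. Neither cell group has a plate of the first set near the second. For the other members a separation of the sets appeared in 1 cell group at most. *Actn4* was higher on plates 5 to 9 in articular-marker cells (1.33-fold). *Actn1* (log2 ratio 0.49) and *Ezr* (log2 ratio 1.93) were higher in the other cells, and *Arpc2* was lower in the other cells, with a log2 ratio of -0.55. The share of all genes that separate within a cell group was not counted, so these separations are not read as a result about the members.

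**Figure D2:**
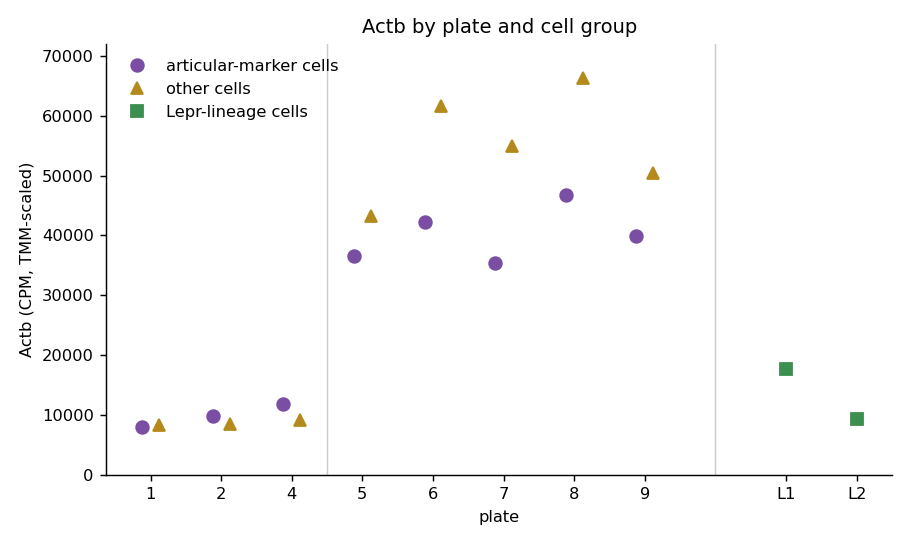
*Actb* CPM (vertical axis, linear from 0; plate and cell-group CPM are scaled in separate fits) by plate (horizontal axis) in articular-marker cells (circles), other *Grem1*-lineage cells (triangles) and *Lepr*-lineage cells (squares, L1 and L2). On plates 1, 2 and 4 both groups lie between 7976 and 11834 CPM, and on plates 5 to 9 the other cells lie above the articular-marker cells of the same plate.

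Within single cells most of the distribution was shifted, rather than a few cells carrying the plate sum. The median *Actb* share of a cell's UMIs was 0.525%, 0.589% and 0.675% on plates 1, 2 and 4, and 2.21%, 2.89%, 2.50%, 3.52% and 2.43% on plates 5 to 9. Over both cell groups the lower quartiles of plates 5 to 9 ran from 1.17% to 2.11%. All were above the upper quartile of each of plates 1, 2 and 4, from 0.836% to 1.02%. In articular-marker cells alone, the lower quartile of plate 5 (1.01%) was below the upper quartile of plate 4 (1.06%). The 90th percentile of all cells of plates 1, 2 and 4 was 1.502%, and 314 of 422 cells of plates 5 to 9 (74.4%) exceeded it, from 62.2% on plate 5 to 93.4% on plate 8. *Lepr*-lineage medians were 1.13% and 1.02%. In the wells below the gene minimum, 59 of 11680 UMIs (0.505%) were *Actb* in 26 wells of plates 1, 2 and 4 and 421 of 28124 (1.497%) in 58 wells of plates 5 to 9, although by plate these shares overlap slightly (0.298% to 0.919% against 0.916% to 1.97%).

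**Figure D3:**
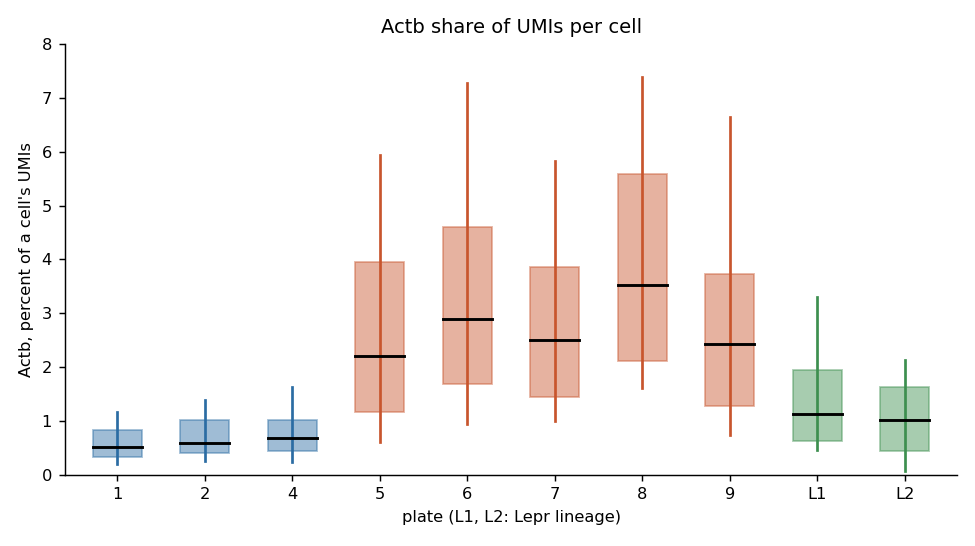
*Actb* as a percent of each cell's UMIs (vertical axis, linear from 0) by plate (horizontal axis; L1 and L2 are *Lepr*-lineage plates): lines run from the 10th to the 90th percentile of cells, boxes from the lower to the upper quartile, and the black bar is the median. Medians lie between 0.525% and 0.675% on plates 1, 2 and 4 and between 2.21% and 3.52% on plates 5 to 9.

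Some other measures moved with the same sets of plates. UMIs of the Y-linked RNA helicase gene *Ddx3y* numbered 20, 23 and 15 on plates 1, 2 and 4 and 0 on each of plates 5 to 9, and those of Y-linked *Eif2s3y* 13, 5 and 11 against 1, 0, 0, 0 and 1. Of the 9 listed immediate early genes, which respond to cell isolation among other stimuli, 7 lay above on all of plates 5 to 9. Among all genes with a mean of at least 50 CPM, 189 of 2739 did (6.90%), and 110 of 2479 on plain totals. The 9 genes summed to 20227 to 30160 CPM on plates 1, 2 and 4 and 38383 to 46917 CPM on plates 5 to 9. The 8 general chondrocyte markers summed to 142269 to 162937 against 172941 to 211871 CPM. This separation depends on the scaling, since the sums of the plate sets overlap on plain totals. The 7 osteoblast markers were widely spread and overlapped, with 1303 to 5833 against 3771 to 39985 CPM. The 6 smooth muscle and pericyte markers, which include *Acta2*, did not separate the sets, with 517.8 to 751.1 against 468.0 to 668.0 CPM and *Des* at 0 on all 8 plates. The 6 endothelial markers were at 7.34 to 39.1 against 0 to 17.8 CPM, with *Emcn*, *Egfl7* and *Flt1* at 0 on the *Grem1*-lineage plates. The Y-linked genes and the summaries named here were chosen with their values known, their part in the *Actb* difference was not tested, and with these labels they and the plate set cannot be told apart.

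Among 1626 genes with a mean of at least 100 CPM, the 5 whose pattern over the 8 plates was most like that of *Actb*, by the root mean square (RMS) difference of centred log2 CPM, were *Crispld2* (0.26), *Arglu1* (0.28), *Ctgf* (0.29), *Bhlhe41* (0.30) and *2810474O19Rik* (0.34). *Ctgf*, which encodes a secreted matricellular protein and is 1 of the 9 immediate early genes above, had 924.0 ± 253.1 CPM (SD, n = 3) on plates 1, 2 and 4 and 4281 ± 752 CPM (SD, n = 5) on plates 5 to 9. *Crispld2* had 252.7 ± 85.2 and 1271 ± 164 CPM, and *Bhlhe41*, a clock-related repressor, 1284 ± 442 and 5044 ± 988 CPM. Of the other members, *Actn1* was at place 166 of 1626 with an RMS difference of 0.94. *Actn4* was at 365, *Cfl1* at 493, *Capzb* at 1024 and *Arpc2* at 1189. *Actg1*, *Acta2*, *Arpc3* and *Ezr* had a mean below 100 CPM and were not ranked.

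Over the fixed lists of 91 actin cytoskeleton genes (among them isoforms, Arp2/3, turnover, bundling and membrane linkers), 50 genes had a mean of at least 50 CPM on the *Grem1*-lineage plates. In 5 of these, *Actb* itself among them, all of plates 5 to 9 lay above plates 1, 2 and 4, and in 0 below, where the shares over all 2739 genes were 6.90% and 4.16%, with the balance turned on plain totals as given above. They were *Actb*, *Actr2*, *Arpc1a*, *Arpc4* and *Enah*. *Actr2*, which encodes the actin-related protein Arp2, had means of 439.7 and 949.8 CPM, *Arpc4* 223.1 and 441.2 CPM, *Arpc1a* 98.1 and 150.5 CPM, and *Enah*, a promoter of filament elongation, 77.5 and 167.7 CPM. The median log2 ratio over the 50 genes was 0.02, and that over all 2739 genes was 0.02.

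Between the 2 groups of *Grem1*-lineage cells, 4 of the 6 members that passed the filter on low counts differed: *Actn1* was lower in articular-marker cells, and *Actn4*, *Capzb* and *Arpc2* were higher (quasi-likelihood test of edgeR, p-values adjusted over all genes by Benjamini-Hochberg). Over all genes, 440 of 1071 differed (41.1%), 209 higher and 231 lower, with the 4 genes of the split left out. *Actg1*, *Acta2*, *Arpc3* and *Ezr* did not pass the filter.

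*Actn1* was at 30.2 (lowest), 92.4 (median) and 225.4 (highest) CPM in the 8 articular-marker sums and at 238.6, 365.6 and 447.5 CPM in the 8 other sums. The groups do not overlap, and the articular-marker sum was lower on 8 of 8 plates. The log2 fold change was -1.85 (SE 0.30, adjusted p = 4.2e-05, edgeR), a 3.61-fold lower level. *Actn4* moved the other way, with 301.4, 388.4 and 491.5 CPM in articular-marker sums and 127.9, 186.4 and 287.6 CPM in the others. It was higher on 8 of 8 plates without overlap, by 0.93 on the log2 scale (SE 0.19, adjusted p = 6.9e-04, edgeR). The paired genes of the non-muscle actinins thus had opposite directions, and both kept them on plain totals (-2.19 and 0.57).

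*Capzb* was at 383.2, 520.5 and 683.1 CPM in articular-marker sums and at 158.6, 239.9 and 360.3 CPM in the others. It was higher on 8 of 8 plates without overlap, with a log2 fold change of 1.11 (SE 0.19, adjusted p = 8.5e-05, edgeR). *Arpc2* was at 634.8, 798.3 and 1213 CPM against 360.1, 627.6 and 810.6 CPM, with overlapping groups and a higher value on 7 of 8 plates. Its log2 fold change was 0.56 (SE 0.18, adjusted p = 0.020, edgeR), and the call was lost on plain totals (0.19, adjusted p = 0.51), without plate 8 (0.46, adjusted p = 0.058), with no filter on low counts (0.41, adjusted p = 0.33) and after thinning to equal depth (0.62, adjusted p = 0.060). Plain totals moved the median of all genes by -0.36 and left 117 higher and 415 lower calls.

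*Cfl1* differed by -0.13 (SE 0.17, adjusted p = 0.54, edgeR) and was called lower on plain totals (-0.48, adjusted p = 0.039). *Actb* differed by -0.39 (SE 0.48, adjusted p = 0.53, edgeR), with values spread over the plate sets in both groups. With the plate as a block it differed by -0.22 (SE 0.12, adjusted p = 0.15, edgeR). *Actb* was lower in the articular-marker sum on every one of plates 5 to 9, by 0.42 on the log2 scale within them, and differed by 0.21 within plates 1, 2 and 4. These within-set values are a description with no test, because the sets were chosen on *Actb*. The within-set values of the called members had the direction of the whole, with *Actn1* at -1.74 and -1.96, *Capzb* at 1.22 and 1.01, *Actn4* at 1.11 and 0.70 and *Arpc2* at 0.81 and 0.27 on plates 5 to 9 and on plates 1, 2 and 4. On the latter 3 plates *Actn4* (adjusted p = 0.15, edgeR) and *Arpc2* (adjusted p = 0.38, edgeR) missed the threshold.

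**Figure D4:**
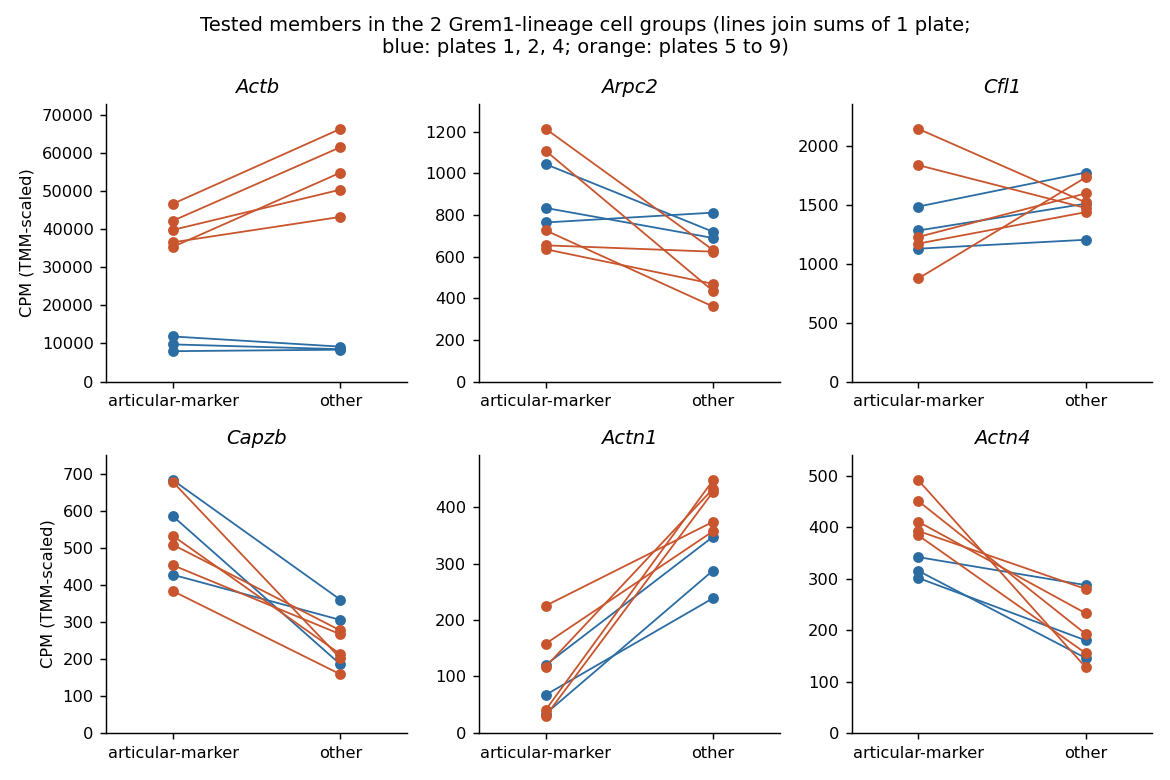
CPM (vertical axes, linear from 0) of the 6 tested members in articular-marker and other *Grem1*-lineage cells; each line joins the 2 sums of 1 plate, blue for plates 1, 2 and 4 and orange for 5 to 9. All 8 lines rise to the other cells for *Actn1* and fall for *Capzb* and *Actn4*, whereas *Actb* splits by plate set.

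Of the 80 actin cytoskeleton genes listed for both lineages, 26 were tested between the cell groups and 6 were higher and 2 lower in articular-marker cells, where 41.1% of all genes were called. Their median log2 fold change was 0.33, against -0.02 for all 1071 genes. By list, Arp2/3 had 2 of 7 tested genes higher (*Arpc1b* and *Arpc2*), turnover 2 of 5 (*Capzb* and *Capg*), bundling 1 higher (*Actn4*) and 2 lower (*Actn1* and *Fscn1*) of 5, and isoforms and membrane linkers 0 of 1 each. *Fscn1*, which encodes the bundling protein fascin and is also 1 of the 5 *Cnmd*-rich markers, had the largest change, at 30.2, 55.8 and 225.4 CPM against 514.7, 672.5 and 760.9 CPM, or -3.02 on the log2 scale (SE 0.26, adjusted p = 1.4e-08, edgeR). *Capg*, a gelsolin-family capping protein gene, was at 245.7, 574.4 and 743.4 CPM against 77.6, 115.5 and 185.5 CPM, or 2.18 (SE 0.23, adjusted p = 2.6e-07, edgeR). In neither gene do the groups overlap.

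Between the lineages, 1 of the 9 members tested differed, *Actn1*, where 853 of 2944 genes did (29.0%). *Actn1* had 570.9 and 378.7 CPM on the *Lepr*-lineage plates, and 145.6 (lowest), 254.6 (median) and 306.9 (highest) CPM on the 8 *Grem1*-lineage plates, without overlap. The log2 fold change was 0.96 (SE 0.30, adjusted p = 0.022, edgeR), and without *Lepr*-lineage plate 1 it was 0.54 (adjusted p = 0.36, edgeR). *Acta2* did not pass the filter, with 39.8 and 14.0 CPM from 3 and 1 UMIs on the *Lepr*-lineage plates.

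*Actb* differed by -1.26 (SE 0.76, adjusted p = 0.22, edgeR), the widest error among the members. The direction of this difference rested on which *Grem1*-lineage plates were used, since with plates 1 and 2 of both lineages it was 0.78. This value is a description with no test, because *Grem1*-lineage plates 1 and 2 are of the set low in *Actb*. *Actg1* had 225.7 and 112.2 CPM against 48.5, 72.1 and 133.6 CPM, with a log2 fold change of 1.08 (SE 0.43, adjusted p = 0.068, edgeR). *Arpc3* had 199.2 and 168.3 CPM against 0, 73.5 and 97.5 CPM. It did not overlap, and its log2 fold change was 1.51 (SE 0.58, adjusted p = 0.061, edgeR). Both *Actg1* and *Arpc3* were called higher on plain totals (1.65, adjusted p = 0.0060, and 2.08, adjusted p = 0.010, edgeR). Both were also called with the gene minimum counted over shared genes (adjusted p = 0.017 and 0.049, edgeR). With no filter on low counts neither was called (*Actg1* 0.87, adjusted p = 0.28, and *Arpc3* 1.30, adjusted p = 0.074, edgeR). Without *Lepr*-lineage plate 1 the log2 fold changes were 0.40 for *Actg1* and 1.29 for *Arpc3*. *Arpc3* was near the threshold and was also called by DESeq2 (adjusted p = 0.039) and without *Grem1*-lineage plate 6 (adjusted p = 0.026, edgeR).

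*Capzb* was far apart on the *Lepr*-lineage plates, at 597.5 and 140.3 CPM, so its difference of 0.13 (SE 0.38) rests on their mean, and it became -1.36 (adjusted p = 0.046, edgeR) without *Lepr*-lineage plate 1. *Cfl1* had 1766 and 1038 CPM, above and below all 8 *Grem1*-lineage plates, and differed by 0.0027 (SE 0.27, adjusted p = 0.99, edgeR). *Arpc2* differed by 0.23 (SE 0.28, adjusted p = 0.57, edgeR), *Actn4* by -0.60 (SE 0.30, adjusted p = 0.15, edgeR) and *Ezr* by 1.21 (SE 0.74, adjusted p = 0.23, edgeR). These 3 genes each had 1 *Lepr*-lineage plate inside the *Grem1*-lineage range. Plain totals raised the median of all genes by 0.56. Among the called genes only, the share with a higher level in the *Lepr* lineage rose from 42.0% to 72.9%.

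**Figure D5:**
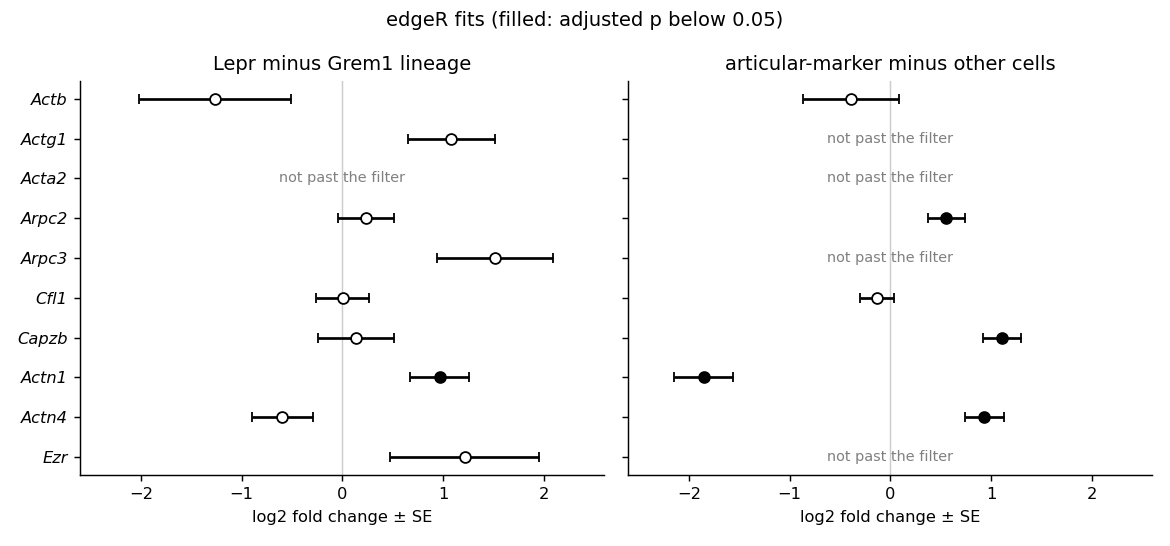
Log2 fold changes with standard errors (horizontal axes) of the members in the comparison of lineages (left, *Lepr* minus *Grem1*) and of cell groups (right, articular-marker minus other cells), with filled points for adjusted p below 0.05 in edgeR. On the left *Actn1* is filled, and on the right *Actn1* (-1.85), *Actn4* (0.93), *Capzb* (1.11) and *Arpc2* (0.56) are.

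Of the actin cytoskeleton genes tested between lineages, 12 of 59 were higher and 7 lower in the *Lepr* lineage, where 29.0% of all genes were called (358 higher and 495 lower, and 773 and 288 on plain totals), with a median log2 fold change of -0.00014 against -0.11 for all genes. By list, bundling had 4 higher and 1 lower of 10, turnover 2 higher of 12, membrane linkers 2 higher of 6, isoforms 1 higher of 4 (*Actc1*) and Arp2/3 1 lower of 9 (*Arpc5l*). Large changes at a mean of at least 50 CPM included those of *Cdh11*, a mesenchymal cadherin gene, with 411.6 and 575.1 CPM against 15.6, 26.3 and 51.4 CPM (log2 fold change 4.09, SE 0.34, adjusted p = 4.7e-07, edgeR), and *Cdc42ep4*, a CDC42 effector gene, at -3.96 (SE 0.91, adjusted p = 0.0036, edgeR). *Cnn2*, which encodes a calponin, was higher by 3.62 on the log2 scale (adjusted p = 4.5e-05, edgeR), and *Fscn1* differed by -2.52 (adjusted p = 2.3e-04, edgeR). The 9 listed blood and myeloid markers summed to 17113 to 25571 CPM on the *Lepr*-lineage plates against 8.69 to 4937 CPM on the *Grem1*-lineage plates, and their part in the lineage differences was not tested.

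At equal depth (529 UMIs per cell, leaving out 2 of 684 *Grem1*-lineage and 83 of 160 *Lepr*-lineage cells), *Actb* was found in 97.4% of *Grem1*-lineage cells (95% Clopper-Pearson interval 95.9 to 98.4%) and 96.1% of *Lepr*-lineage cells (89.0 to 99.2%). *Cfl1* was found in 43.4% (39.6 to 47.2%) and 42.9% (31.6 to 54.6%), and *Arpc2* in 24.0% (20.9 to 27.4%) and 33.8% (23.4 to 45.4%). *Actn1* was found in 8.36% of *Grem1*-lineage cells (6.39 to 10.7%) and 27.3% of *Lepr*-lineage cells (17.7 to 38.6%). Within the *Grem1* lineage it was found in 4.12% of articular-marker cells (2.42 to 6.51%) and 14.9% of other cells (10.8 to 19.7%), while *Actn4* was found in 15.98% (12.6 to 19.9%) and 7.06% (4.31 to 10.8%). *Actg1*, *Acta2*, *Arpc3* and *Ezr* were each found in under 3% of *Grem1*-lineage cells, from 0.733% for *Ezr* to 2.79% for *Actg1*. Without thinning, *Actn1* was found in 23.5% and *Cfl1* in 73.2% of *Grem1*-lineage cells. The intervals cover counting error only, cells of a plate are not independent, and RNA carried between wells was not removed.

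Further genes of actin turnover were counted in *Lepr*-lineage cells only, because they stand later in the gene list. *Tmsb4x*, which encodes the monomer-binding thymosin beta 4, had 5260 and 3945 CPM over all listed genes on plates 1 and 2, and *Pfn1*, the profilin gene, 1770 and 1533 CPM. *Tmsb10* had 2205 and 1017 CPM, and *Myl6*, a myosin light chain gene, 459.8 and 515.5 CPM. *Tagln*, a smooth muscle marker, had 0 UMIs on both plates, which allows up to 18.9 and 20.6 CPM.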

How the data were processed

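The deposited values are UMI counts, whole numbers that were not normalised, in 1 table per lineage with a row per gene and a column per well. Their processing notes name UMI-tools, STAR, featureCounts, SAMtools and Seurat with mm10, and the alignment and counting settings are not given in the sources used here. The *Grem1*-lineage table was used up to *Gm5763* (29183 complete rows, 1 cut row left out). Wells with at least 350 detected genes were kept, and their UMIs summed over each plate, and over each cell group of a plate. Plates were assigned from the sample titles. No doublet caller was run.

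Sums were tested in R 4.3.3 with edgeR 4.0.16 (filterByExpr, TMM, quasi-likelihood test, Benjamini-Hochberg threshold 0.05), with DESeq2 1.42.0 as an alternative. Standard errors are approximate (absolute log2 fold change over the root of the F statistic). The *Actb* split of the plates was chosen on *Actb*, so plate sets were compared by CPM and overlap, without a test. Cell-group sums of the same plate deviated together (mean correlation 0.30 across genes, over 0.1 on 8 of 8 plates, against -0.04 for different plates) and are thus paired by plate. The main cell-group fits nevertheless had no plate term, and the block by plate was an alternative. Fits were tested on simulated data, in which the sums of a plate were not paired and the plates formed no sets. The members, gene lists and marker lists were chosen with earlier results of these data known. Named genes were all members, up to 5 genes of the actin lists per test (largest change, mean of at least 50 CPM) and the 5 genes most like *Actb*. The counts of 1 of the actin lists and 1 gene of this rule are not reported here. Any further gene was named with its values in view. Alternatives were other normalisations, filters, cell minimums, cell splits, thinning, plate blocks and each plate left out. Plain totals in the tests and fits within plate sets were added after the data were seen. At 59981 to 179071 UMIs per plate, genes of a few UMIs cannot be placed on single plates.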

Additional observations from a re-analysis of the deposited data

Results flagged for a closer look

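In each of the 10 members the 8 plates were examined for a single plate far from the rest, over all *Grem1*-lineage cells and in each cell group, 30 sets of 8 values in all, of which chance would mark about 1 in 20. In 3 sets the gap to the nearest plate, as a share of the whole range, was over Dixon's 95% critical value. *Acta2* in articular-marker cells reached 156.5 CPM on plate 5, from 8 UMIs, with the next plate at 45.03 CPM. *Acta2* in the other cells reached 159.0 CPM on plate 2, from 12 UMIs, with the next plate at 53.4 CPM. *Arpc3* in the other cells reached 149.2 CPM on plate 7, with the next plate at 66.5 CPM. All 3 are genes that did not pass the filter on low counts in the comparison of cell groups.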

How the results depend on the processing

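Of the values of single members, 150 of 183 between lineages, 105 of 116 between cell groups and 120 of 125 between plate sets kept their direction and side of the threshold, or stayed within 1 SD, under the alternatives. The causes of the exceptions were not tested. The number of members called between lineages was 1 of 9, where 853 of 2944 genes were called. It became 2 with DESeq2 (761 of 2944 genes), 3 with the gene minimum counted over shared genes (863 of 2943) and 3 on plain totals (1061 of 2944). Against *Grem1*-lineage plates 1, 2 and 4 it was 4 (654 of 2613 genes, with *Actb* not counted among the members there). Without 1 plate it was 1 to 2, and the 853 genes called became 529 to 850. With plates 1 and 2 of each lineage 451 of 1915 genes were called, and 489 with the replicate number as a block, although plates of different lineages share only a number. The 1 member called there was *Arpc3* (1.72, adjusted p = 0.041, and 1.73, adjusted p = 0.047 with the block, edgeR), while *Actn1* missed (adjusted p = 0.055 and 0.058, edgeR). The direction of *Actb* turned (0.78 without and 0.73 with that block). This is a description, because *Grem1*-lineage plates 1 and 2 are of the set low in *Actb*. Directions also turned for *Capzb* (-0.025 and -0.21) and *Cfl1* (-0.0094 and -0.043). With no filter on low counts they turned for *Capzb* (-0.087) and *Cfl1* (-0.21), the latter also against plates 5 to 9 (-0.018). Leaving out 1 plate gave -0.31 to 0.51 for *Arpc2*, -1.36 to 0.76 for *Capzb* and -0.53 to 0.28 for *Cfl1*. With no filter *Actn1* lost its call (0.75, adjusted p = 0.18, edgeR) and *Actb* gained one (-1.47, adjusted p = 0.0069, edgeR). The adjusted p of *Actn1* ranged from 6.1e-04 to 0.36.

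Between cell groups the 4 called members (440 of 1071 genes) became 2 on plates 1, 2 and 4 alone (235 of 1170 genes, *Actb* at 0.21). After thinning, 161 of 383 genes were called and 0 of the 3 members still tested: *Actn1*, *Actn4* and *Capzb* no longer passed the filter, and *Arpc2* was at 0.62 (adjusted p = 0.060, edgeR). Without filter 706 of 12510 genes were called, *Actb* gained a call (-0.56, adjusted p = 0.038, edgeR) and *Arpc2* lost its call. Leaving out 1 plate gave 3 to 4 members, 381 to 437 genes of 1010 to 1101 tested, and -0.24 to 0.0033 for *Cfl1*. The block by plate called 511 of 1071 genes and changed no member's call. Between plate sets 2 members, *Actb* and *Ezr*, lay above without overlap. Their number became 1 on plain totals and 2 to 4 without 1 plate. *Actb* is among them by choice, because the sets were chosen on it. *Ezr*, with a mean of 34.6 CPM, is below the 50 CPM required for the share over all genes. That share was not counted without 1 plate, so these numbers of members are a description only. The *Actb* log2 ratio was 2.23 on plain totals, 2.03 in articular-marker cells, 2.67 in the other cells and 2.37 to 2.54 without 1 plate. Shares of cells with a UMI moved for 9 of 10 members without thinning. Depth limits *Acta2*, *Ezr*, *Arpc3* and *Actg1*, which had 35 to 79 UMIs in the *Grem1* lineage.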
